A study of Mus musculus with 8 samples.

Results

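Slc2a2, G6pc2, Abcc8 and Kcnj11, genes of the glucose-sensing machinery of the pancreatic β-cell, were followed in islets of mice that lack Fibulin-5 (Fbln5) in β-cells. They were chosen by name, by a rule that uses no measured value but with earlier results of these data known, as genes of glucose uptake, glucose phosphate turnover and the ATP-sensitive potassium (KATP) channel, and they are 4 of the 22911 genes, with 7 of the 56605 probes, that the arrays measured. Islet RNA of control and βFbln5KO mice, both aged 11 weeks, was extracted from 150 islets at a time, and each extraction was hybridized to 1 one-colour array (n = 4 per group, male littermates). Control mice carried the floxed Fbln5 allele, and βFbln5KO mice carried it together with Ins1-Cre, a Cre recombinase under the mouse insulin 1 promoter. Cells of the islet other than β-cells therefore keep the gene intact, and no array of Ins1-Cre mice without the floxed allele was analysed here.

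β-cells take up glucose through transporters of the SLC2A family, phosphorylate it and burn it, and the ATP formed closes the KATP channel. The closed channel lets the membrane depolarize, calcium enters through voltage-gated channels, and insulin is released. Slc2a2 encodes GLUT2, the transporter that carries glucose into rodent β-cells. G6pc2 encodes the islet glucose-6-phosphatase, which turns glucose-6-phosphate back to glucose and so opposes the first step of glycolysis. Abcc8 encodes SUR1, the regulatory subunit of the KATP channel and the binding site of the sulfonylureas, and Kcnj11 encodes its inward-rectifier pore. The comparison asks whether the transcripts of this machinery differ between βFbln5KO and control islets.

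On the RefSeq annotation of GRCm38.p6, Slc2a2 lies on chromosome 3 from 28697903 to 28728361 and G6pc2 on chromosome 2 from 69211073 to 69227993. Both KATP subunits lie side by side on chromosome 7, Kcnj11 from 46097123 to 46100952 and Abcc8 from 46104523 to 46180039, with 3570 bases between them. Upstream sequence was at hand for 2 of the 4 members, and the 250 bases before each of 3 annotated start sites are shown because the factors that bind short motifs in β-cell promoters were measured on the same arrays. Capitals mark TAAT (the core read by homeodomain factors such as Pdx1 and Nkx6-1), CANNTG (the E-box, read by Neurod1 and its partners) and TGCTGA (one arm of the site of Maf factors), on either strand. The sequences are from RefSeq, 5′ to 3′ on the plus strand. They cover chr3:28697653-28697902 for Slc2a2, chr2:69210823-69211072 for the first start site of G6pc2 and chr2:69219699-69219948 for its other start site, which lies inside the gene.
Slc2a2: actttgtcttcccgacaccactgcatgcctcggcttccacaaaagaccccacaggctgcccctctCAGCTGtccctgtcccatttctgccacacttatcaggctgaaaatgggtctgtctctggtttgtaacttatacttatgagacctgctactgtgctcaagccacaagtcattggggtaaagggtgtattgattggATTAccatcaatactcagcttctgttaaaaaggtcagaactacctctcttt
G6pc2, first start: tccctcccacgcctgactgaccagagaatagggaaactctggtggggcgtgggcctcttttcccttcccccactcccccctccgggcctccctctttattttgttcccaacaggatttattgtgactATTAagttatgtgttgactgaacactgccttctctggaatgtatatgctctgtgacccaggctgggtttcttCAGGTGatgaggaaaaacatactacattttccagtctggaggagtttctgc
G6pc2, inner start: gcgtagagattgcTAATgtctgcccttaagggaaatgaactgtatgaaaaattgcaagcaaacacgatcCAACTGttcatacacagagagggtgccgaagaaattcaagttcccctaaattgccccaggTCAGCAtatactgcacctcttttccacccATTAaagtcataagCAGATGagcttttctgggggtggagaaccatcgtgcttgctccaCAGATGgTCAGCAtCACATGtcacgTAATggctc
The Slc2a2 window and the first G6pc2 window hold 1 TAAT, 1 E-box and 0 TGCTGA each, and the inner G6pc2 window holds 3, 4 and 2. Of the 32851 promoter windows of this length in the reference, 54.9% hold a TAAT, 66.2% an E-box and 16.1% a TGCTGA. These matches describe the letters only.

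Levels are log2 processed signals minus the 75th percentile of the same array, so that 0 is the 75th percentile and 1 unit is a doubling. A probe is called detected on an array where the scanner software marks it well above background, as it did for 56.6% to 58.8% of the spots on control arrays and 52.6% to 56.6% on βFbln5KO arrays. No member probe was saturated. Differences are βFbln5KO minus control, with limma across all probes and Benjamini-Hochberg adjustment over the 56605 of them. With few arrays precision is limited, and no exact two-sided permutation test of 4 against 4 arrays can give a p below 0.029. Control arrays filled 1 row of the slide and βFbln5KO arrays the other, so slide position and genotype cannot be told apart. The targeted gene was checked first: the log2 level of Fbln5 was −2.05 to −1.32 on control arrays and −2.74, −2.40, −2.38 and −1.37 on βFbln5KO replicates 1 to 4. The array labelled βFbln5KO replicate 4 thus lay within the control range, and the log2 fold change was −0.50 (SE 0.29, adjusted p = 0.342 in limma), or −0.78 (adjusted p = 0.0227 in limma) without that array. That array was singled out by its Fbln5 value, so a larger fall without it follows from the choice and is no check of the knockout. In that setting 11544 probes passed the adjusted threshold, against 6 with all arrays. Because of its Fbln5 level, the differences of the KATP subunits are given with and without that array. The β-cell markers Ins1, Ins2, Iapp, Pcsk1, Ucn3, Slc30a8, Ero1b, Mafa and Nkx6-1 were detected on all 8 arrays.

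None of the 7 member probes passed the adjusted threshold of 0.05, against 0.0106% of all probes (6 of 56605). All 7 were detected on all 8 arrays. Transcripts of both KATP subunits had lower mean levels in βFbln5KO islets on each of their 4 probes, by 0.13 to 0.29 on the log2 scale at this scaling (the bright Abcc8 probe turned to 0.033 with quantile normalization), while the glucose transporter and the phosphatase differed by less than 0.07 on each of their 3 probes. One member probe, the dimmer one of Kcnj11, had an unadjusted limma p under 0.05, where 5.42% of the probes detected on all arrays did so with a lower level in βFbln5KO. The groups did not overlap on 2 of the 7 probes, 1 of Abcc8 and 1 of Kcnj11, both lower in βFbln5KO, and 3.39% of the probes detected on all arrays had such a gap in that direction.

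**Figure D1:**
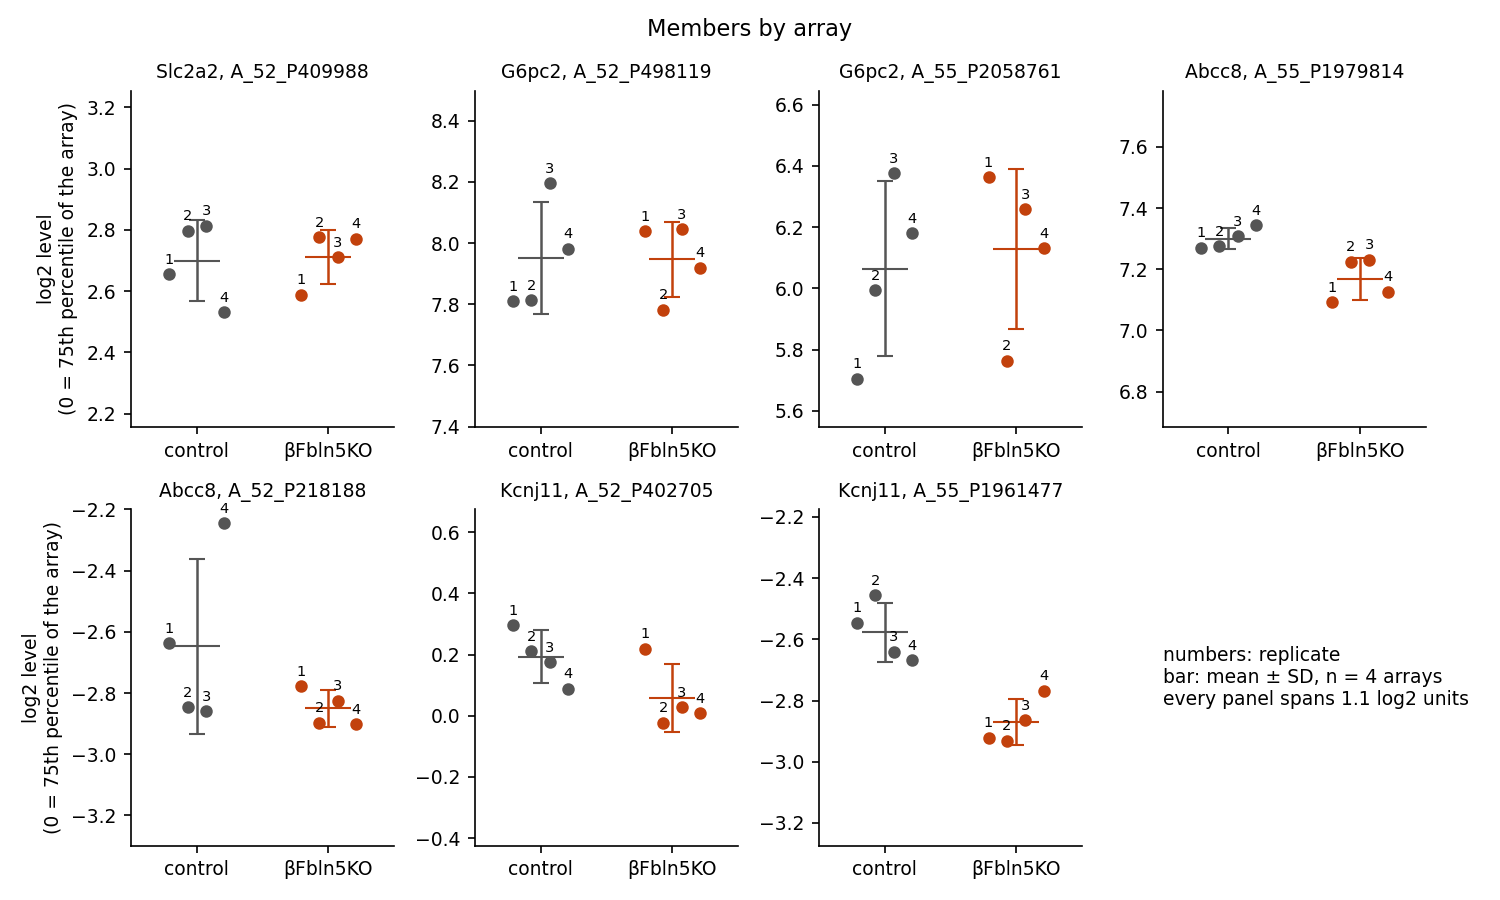
Log2 level of the 7 member probes on each array, 1 panel per probe, with the control arrays left and the βFbln5KO arrays right. Points are arrays with their replicate number, bars are the mean and SD (n = 4), and every panel spans the same number of log2 units. The groups are apart for Abcc8 (A_55_P1979814) and Kcnj11 (A_55_P1961477) and overlap on the other 5 probes.

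Slc2a2, the GLUT2 transporter, is read by 1 probe, A_52_P409988. Its log2 level was 2.66, 2.80, 2.81 and 2.53 on control replicates 1 to 4. On βFbln5KO replicates 1 to 4 it was 2.59, 2.78, 2.71 and 2.77. The highest and the lowest array were both controls, and the 4 βFbln5KO arrays lay between them. The log2 fold change was 0.012 (SE 0.075, adjusted p = 0.951 in limma, exact permutation p = 0.886). The 95% interval, −0.16 to 0.18, allows anything from 10.4% lower to 13.5% higher signal in βFbln5KO islets.

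G6pc2, the islet glucose-6-phosphatase, was read by 2 probes. On the brighter one, A_52_P498119, the log2 level was 7.81, 7.81, 8.20 and 7.98 in control replicates 1 to 4. In βFbln5KO replicates 1 to 4 it was 8.04, 7.78, 8.04 and 7.92. Arrays of both groups were mixed, with control replicate 3 highest and βFbln5KO replicate 2 lowest. The log2 fold change was −0.0039 (SE 0.12, 95% interval −0.29 to 0.28, adjusted p = 0.991 in limma).

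The second G6pc2 probe, A_55_P2058761, gave 5.70, 5.99, 6.38 and 6.18 in control and 6.36, 5.76, 6.26 and 6.13 in βFbln5KO. It had the widest spread of the 7 probes, with a pooled SD of 0.27, and its log2 fold change was 0.065 (SE 0.17, 95% interval −0.32 to 0.45, adjusted p = 0.879 in limma). That value ran from −0.055 to 0.19 with single arrays left out and reached 0.26 with the summed acinar markers as a covariate. Both G6pc2 probes were highest in control replicate 3 among the controls and lowest in βFbln5KO replicate 2 among the βFbln5KO arrays, so that the probes moved together from array to array while the group means stayed within their errors of each other. The direction of the brighter probe turned with the normalization, from −0.0039 to 0.16 with quantile normalization.

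Abcc8, the SUR1 subunit, was read by 2 probes, and its bright probe, A_55_P1979814, had the smallest spread of the 7, with a pooled SD of 0.055. The log2 level was 7.27, 7.27, 7.31 and 7.34 on control replicates 1 to 4. On βFbln5KO replicates 1 to 4 it was 7.09, 7.22, 7.23 and 7.13. All 4 βFbln5KO arrays were below all 4 control arrays, by a small step: the lowest control was at 7.27 and the highest βFbln5KO array at 7.23. The difference of the means was −0.13 (SE 0.079, 95% interval −0.31 to 0.048), which is 8.66% less signal. It did not pass the threshold (adjusted p = 0.371 in limma), and the exact permutation p of 0.029 is the smallest that the design allows. Without βFbln5KO replicate 4 the difference was −0.12 (adjusted p = 0.544 in limma).

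The second Abcc8 probe, A_52_P218188, is far dimmer, with processed signals of 97.7 to 176. It gave −2.64, −2.85, −2.86 and −2.25 in control and −2.78, −2.90, −2.82 and −2.90 in βFbln5KO. Control replicate 4 stood above the other 7 arrays, and control replicates 2 and 3 lay within the βFbln5KO range. The mean difference was −0.20 (SE 0.16, adjusted p = 0.536 in limma) and became −0.069 without control replicate 4. Without βFbln5KO replicate 4 it was −0.19 (adjusted p = 0.644 in limma). It was −0.13 with normexp background correction and −0.056 with cyclic loess normalization.

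Kcnj11, the pore of the channel, was read by 2 probes. On the brighter one, A_52_P402705, the log2 level was 0.30, 0.21, 0.18 and 0.088 on control replicates 1 to 4. On βFbln5KO replicates 1 to 4 it was 0.22, −0.023, 0.028 and 0.0075. Of the βFbln5KO arrays, 3 were below every control, and βFbln5KO replicate 1 was above 3 of the 4 controls. The log2 fold change was −0.13 (SE 0.072, 95% interval −0.30 to 0.028), or 8.93% less signal, with p = 0.304 after adjustment in limma and an exact permutation p of 0.114. Without βFbln5KO replicate 4 it was −0.12, and without βFbln5KO replicate 1, the array that overlaps the controls, it was −0.19 (adjusted p = 0.165 in limma).

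The dimmer Kcnj11 probe, A_55_P1961477, gave −2.55, −2.46, −2.64 and −2.67 in control replicates 1 to 4. In βFbln5KO replicates 1 to 4 it gave −2.92, −2.93, −2.86 and −2.77. Every βFbln5KO array lay below every control array. The log2 fold change of −0.29 (SE 0.12, 95% interval −0.57 to −0.019) was the largest among the 7 probes and equals 18.4% less signal, with an interval from 1.33% to 32.5% less. The limma p was 0.0386 unadjusted and 0.169 adjusted over all probes, and the exact permutation p was 0.029. With cyclic loess normalization the value was −0.15 (unadjusted p = 0.195 in limma). With the replicate number as a block it was −0.29 (95% interval −0.66 to 0.071, unadjusted p = 0.0966 in limma). When each array was left out in turn, the value stayed between −0.33 and −0.25, and the unadjusted p was under 0.05 in 1 of the 8 cases, the one without βFbln5KO replicate 4 (−0.33, adjusted p = 0.144 in limma).

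Across all probes, the difference between the groups varied with brightness, so each member was set beside the probes of its own brightness. Among the 94 probes whose mean log2 level was within 0.5 of the bright Abcc8 probe, 93.6% were lower in βFbln5KO, with a median log2 fold change of −0.12, against −0.13 for Abcc8 itself. Of these probes, 17.0% had non-overlapping groups with the lower values in βFbln5KO. The 42 probes as bright as the brighter G6pc2 probe had a median of −0.13, whereas G6pc2 was at −0.0039. Quantile normalization, which gives every array the same distribution of signals, turned Abcc8 from −0.13 to 0.033, and cyclic loess normalization moved it to −0.087.

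The dim Abcc8 probe and both Kcnj11 probes lay below the median of the probes of their brightness. For the dim Abcc8 probe, at −0.20, the 4100 probes of like brightness had a median of −0.093. The 3488 probes within 0.5 of the brighter Kcnj11 probe had a median log2 fold change of −0.0067, against −0.13 for Kcnj11, and the value was −0.13 with quantile and −0.10 with cyclic loess normalization. For its dimmer probe the 4098 probes of like brightness had a median of −0.092, against −0.29, and the value was −0.27 with quantile and −0.15 with cyclic loess normalization. For Slc2a2, the 2215 probes of like brightness had a median of −0.00080, close to its own 0.012. No test was run on these contrasts with probes of like brightness.

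**Figure D2:**
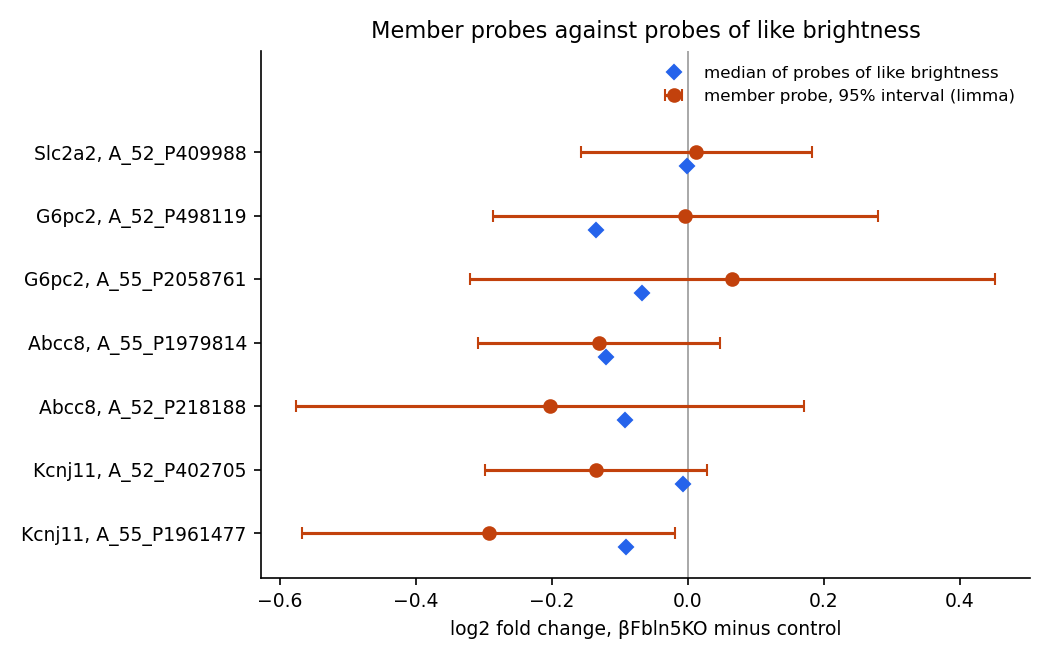
Log2 fold change (βFbln5KO minus control) of each member probe with its 95% interval from limma, and, as diamonds, the median log2 fold change of all probes within 0.5 log2 units of the same mean level. The bright Abcc8 probe (−0.13) sits on the median of its neighbours in brightness (−0.12), while the dim Abcc8 probe (−0.20) and both Kcnj11 probes (−0.13 and −0.29) sit below theirs (−0.093, −0.0067 and −0.092).

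Both subunits of one channel were also compared within each array. The difference in log2 level between Kcnj11 and Abcc8 (brighter probes), which a single factor per array cannot alter, changed by −0.0043 from control to βFbln5KO, with SDs of 0.12 and 0.17 (n = 4 each). Normalizations that depend on brightness do alter it, to −0.17 with quantile and −0.018 with cyclic loess normalization, and the probes of like brightness had medians of −0.0067 for Kcnj11 and −0.12 for Abcc8. The 4 members were then set against the mean log2 level of the 9 β-cell markers on the same array, which had SDs of 0.014 in control and 0.060 in βFbln5KO and differed between the groups by −0.067, or by 0.034 with quantile and −0.030 with cyclic loess normalization. Against that mean, Abcc8 differed between the groups by −0.064 and Kcnj11 by −0.068, Slc2a2 by 0.079 and G6pc2 by 0.063. With quantile normalization these values were −0.0013 for Abcc8, −0.17 for Kcnj11, −0.016 for Slc2a2 and 0.13 for G6pc2. Relative to that mean, Abcc8 lay between 1.24 and 1.32 on control arrays and between 1.13 and 1.28 on βFbln5KO arrays, so that the gap seen in its own level closed to an overlap. In whole islets, fewer β-cells and less RNA per β-cell cannot be told apart.

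**Figure D3:**
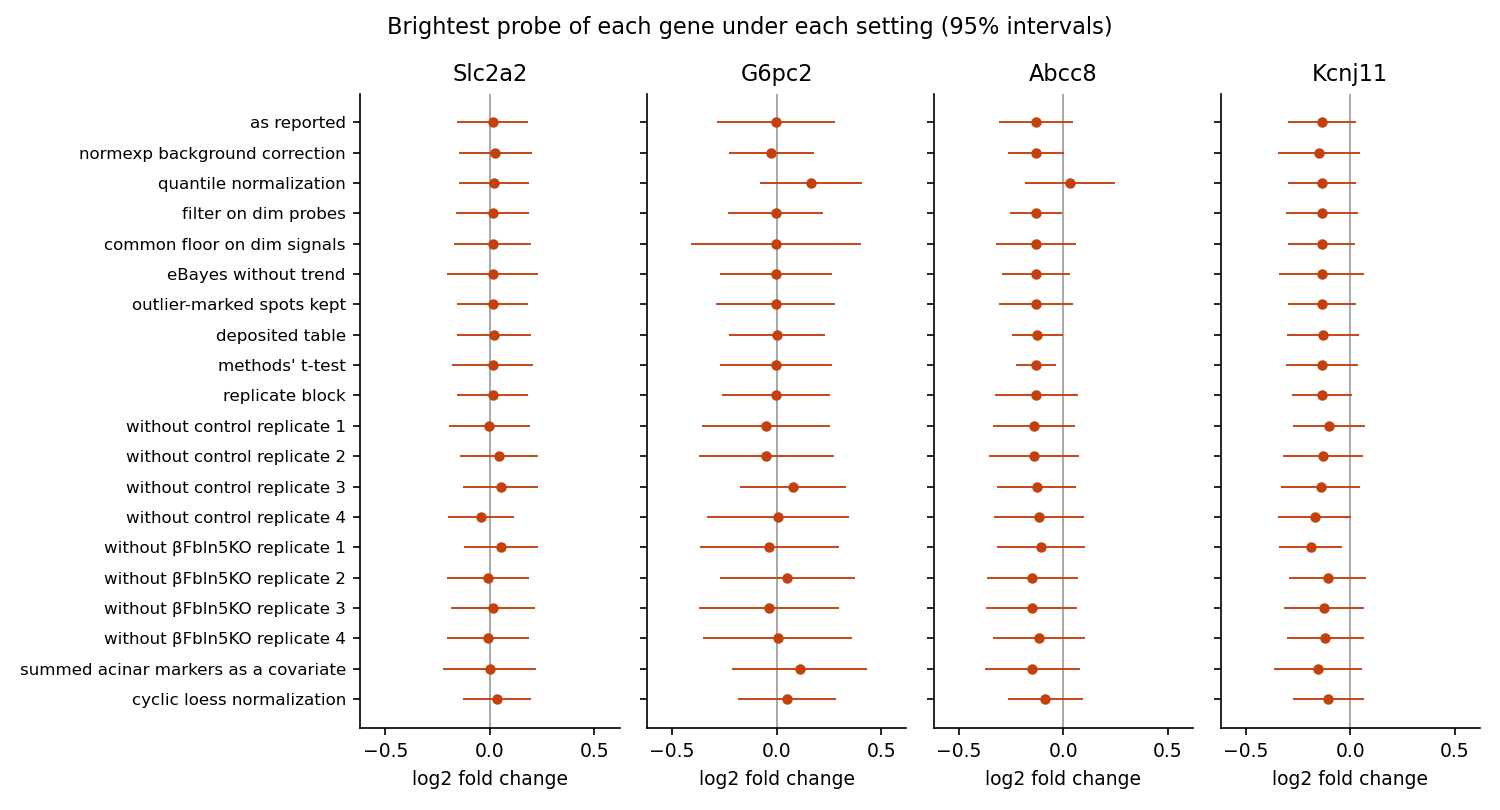
Log2 fold change (βFbln5KO minus control) of the brighter probe of each member as reported and under 19 other settings, with 95% intervals. Kcnj11 is below 0 throughout, Abcc8 is below 0 except with quantile normalization (0.033), and Slc2a2 and G6pc2 lie on both sides of 0.

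The other KATP subunits gave a reference for the 2 members of the channel. Abcc9 encodes SUR2, the regulatory subunit of the channel in muscle and vessels. Its log2 level was −3.08, −2.96, −3.03 and −2.78 in control and −3.22, −3.49, −3.37 and −3.15 in βFbln5KO. The groups did not overlap, and the log2 fold change was −0.35 (SE 0.15, adjusted p = 0.208 in limma). Such a gap, lower in βFbln5KO, was seen on 3.39% of the probes detected on all arrays. It was seen on 5.44% of the 4100 probes within 0.5 of the dim Abcc8 probe, whose median log2 fold change was −0.093. Kcnj8, the vascular pore subunit, was at −2.38 to −1.33 in control against −2.50 to −1.83 in βFbln5KO, a difference of −0.13 (SE 0.24, adjusted p = 0.832 in limma) with broad overlap.

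Of 23 other inward-rectifier and ABCC genes, 3 had an unadjusted limma p under 0.05, with 2 higher and 1 lower in βFbln5KO. Over all 22911 genes, each by its brightest probe, these shares were 16.8% higher and 2.68% lower. The higher ones were Kcnj1 and Kcnj16, which were detected on 0 of 8 arrays and get no fold. With normexp, the filter on dim probes, the common floor, the deposited table and the mean of a gene's bright probes, 0 of the list were higher and 2 lower. Such genes make up most of the calls, since of 5710 genes detected on 0 arrays 3520 passed in one direction or the other. Among the 13650 genes detected on all 8 arrays, the shares were 1.01% higher and 3.08% lower. The lower one, Abcc1, an exporter of organic anions and glutathione conjugates, was at −0.72 to −0.61 in control against −1.41 to −0.82 in βFbln5KO, a log2 difference of −0.40 (SE 0.12, unadjusted p = 0.00846, adjusted p = 0.0730 in limma). Abcc5, a nucleotide exporter, was at −0.097 (SE 0.059) and the potassium channel Kcnj13 at −0.21 (SE 0.21). The median log2 fold change of the 12 genes of this list that were detected on all arrays was −0.085, and that of all 13650 such genes −0.0082.

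Upstream of the channel, the other carriers and enzymes that handle glucose were read in the same way. Slc2a1 (GLUT1, the ubiquitous transporter) was at 0.72 to 1.04 in control against 0.58 to 1.08 in βFbln5KO, a log2 difference of 0.042 (SE 0.12). Slc2a3 (GLUT3), where 1 outlier-marked βFbln5KO value was left out, was at −0.060 (SE 0.47). The ubiquitous phosphatase G6pc3 and the glucose-6-phosphate transporter of the endoplasmic reticulum Slc37a4, which works with G6pc2, were at −0.013 (SE 0.059) and −0.022 (SE 0.070). Hk1, the hexokinase of most tissues, was at −0.080 (SE 0.19), and Hk2 was detected on 3 of the 8 arrays only.

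Of the 22 genes of this group, 2 had an unadjusted limma p under 0.05, 1 in each direction, against 16.8% higher and 2.68% lower over all genes. Of the 14 detected on all arrays, 1 was called higher and 0 lower. Among all genes so detected, the shares were 1.01% and 3.08%. The higher one was Slc37a1, a relative of Slc37a4 in the same membrane, at 1.31 to 1.41 in control and 1.40 to 1.56 in βFbln5KO, a log2 difference of 0.13 (SE 0.051, adjusted p = 0.150 in limma). The lower one, the sodium-glucose cotransporter Slc5a2, was detected on 3 of 8 arrays and had an adjusted p of 0.0850 in limma. Without βFbln5KO replicate 4 the count was 1 higher and 4 lower. In that setting 11544 probes passed even after adjustment, 11206 of them higher, and the share over all genes was not computed. The transporters Slc2a9, which also carries urate, and Slc2a8 were at −0.25 (SE 0.12) and −0.12 (SE 0.14), and the hexokinase Hk3 at 0.14 (SE 0.21). None of the 22 passed after adjustment over all probes.

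The 26 genes that turn glucose into ATP, from glycolysis to the mitochondrial shuttles, had 0 calls at an unadjusted limma p under 0.05, and up to 1 when an array was left out, where the shares among all genes detected on all arrays were 1.01% higher and 3.08% lower. All 26 were detected on all arrays, with log2 fold changes between −0.063 and 0.35 and a median of 0.014. The smallest p belonged to Pfkfb3, which makes the activator of phosphofructokinase, at 0.35 (SE 0.16, adjusted p = 0.223 in limma). Pdha1 of the pyruvate dehydrogenase complex was at 0.13 (SE 0.060), the mitochondrial pyruvate carrier subunit Mpc1 at 0.099 (SE 0.061) and the glycolytic enzyme Pgam1 at 0.081 (SE 0.059). With quantile normalization 1 of the 26 was called and with cyclic loess normalization 3, all higher in βFbln5KO.

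Downstream of the channel, 24 genes of depolarization and calcium entry had 1 call at an unadjusted limma p under 0.05, Cacna1e, on a probe detected on 0 of 8 arrays and higher in βFbln5KO. Over all genes the shares were 16.8% higher and 2.68% lower. In the deposited table the count in this list was 0 higher and 1 lower. The potassium channel Kcnk16, a background conductance of islet cells, was at 0.26 (SE 0.13, adjusted p = 0.273 in limma). Kcnq1, a voltage-gated potassium channel, was at −0.47 (SE 0.25) with 1 outlier-marked control value left out. The calcium channel subunit Cacna2d1 and the cation channel Trpm4 were at −0.11 (SE 0.067) and −0.067 (SE 0.047). The 19 of these 24 genes detected on all arrays had 0 calls and a median of −0.054. All 13650 genes so detected had a median of −0.0082, with 1.01% called higher and 3.08% lower.

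**Figure D4:**
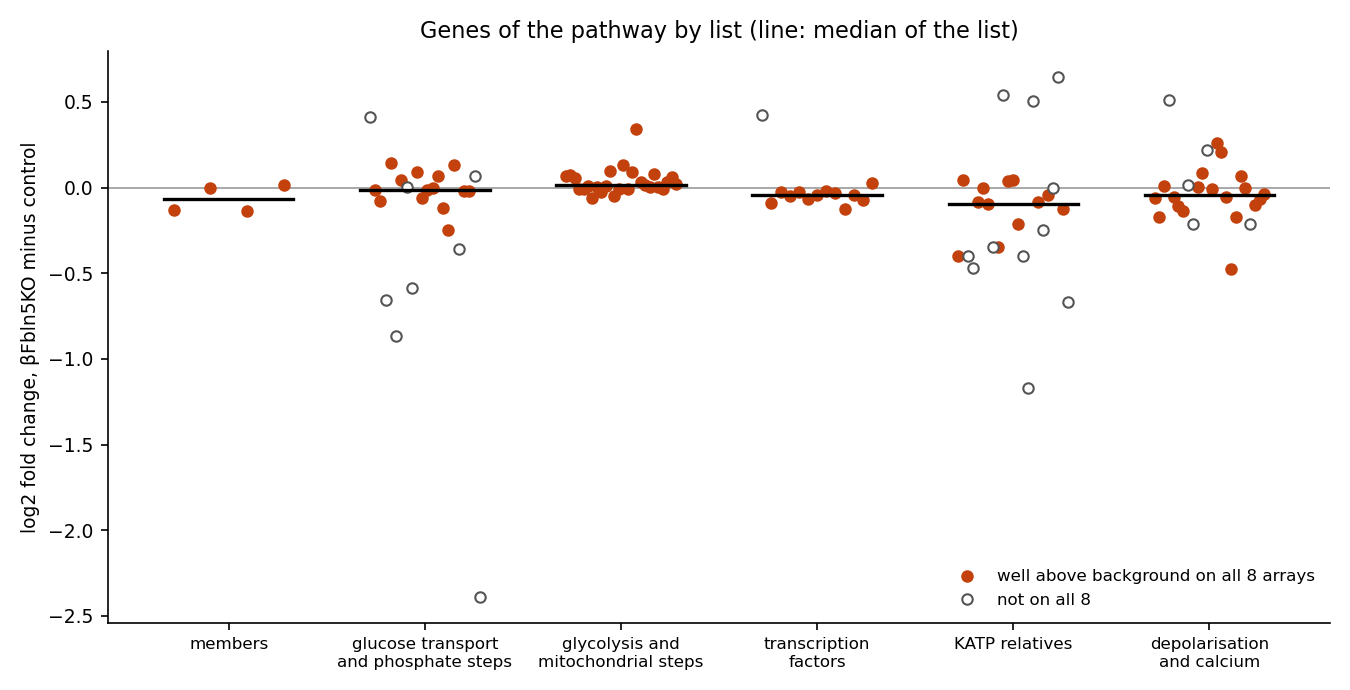
Log2 fold change (βFbln5KO minus control) of the 4 members and of 5 lists of genes of the same pathway, 1 point per gene by its brightest probe. Filled points were detected (well above background) on all 8 arrays, open points were not, and lines are the medians of the lists, which lie between −0.097 and 0.014.

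The transcription factors known to act on these promoters were also on the arrays. None of 13 passed at an unadjusted limma p under 0.05, and 12 of the 13 were detected on all arrays. Among all genes so detected the shares were 1.01% higher and 3.08% lower, and over all genes 16.8% and 2.68%. Of the 13, 11 had values below 0, with a median of −0.044, where 9942 of all 22911 genes were below 0. The 12 detected on all arrays had a median of −0.045, against −0.0082 for all 13650 genes so detected. The brightest probes, such as those near Abcc8 in level, were mostly lower in βFbln5KO at this scaling. The homeodomain factors Nkx6-1 and Pdx1 were at −0.13 (SE 0.081, adjusted p = 0.410 in limma) and −0.073 (SE 0.067). The level of Pdx1 was 0.85 to 1.12 in control against 0.81 to 0.96 in βFbln5KO. Foxa2 and Hnf4a, which bind liver and islet enhancers, were at −0.089 (SE 0.092) and −0.049 (SE 0.083). Neurod1 and Mafa, named for the motifs shown above and after their values were seen, were at −0.019 (SE 0.076) and −0.064 (SE 0.12).

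Marker lists of the islet's cells were read on the same arrays. The summed level of the 9 β-cell markers, on the log2 scale, was 10.15 to 10.39 in control and 10.07 to 10.18 in βFbln5KO, a mean difference of −0.14 that turned to 0.026 with quantile normalization, and 0 of the 9 passed at an unadjusted limma p under 0.05. The summed α-cell level was 8.11 to 8.29 in control and 7.95 to 8.12 in βFbln5KO. Since α- and δ-cells also carry the KATP channel, their lists stand beside the values of Abcc8 and Kcnj11, and the δ-cell sum was 7.57 to 7.81 in control and 7.59 to 7.66 in βFbln5KO.

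The enzymes of acinar cells, which adhere to isolated islets, differed most. Their summed level was 9.97 to 11.43 in control and 9.29 to 10.73 in βFbln5KO, a mean difference of −0.82 with overlap, and all 11 markers had values below 0, of which Cela1 passed at an unadjusted p of 0.0260 in limma. A fit with the summed acinar level as a covariate was added after the data were seen. In it Abcc8 was at −0.15 (SE 0.097) and Kcnj11 at −0.15 (SE 0.091), against −0.13 (SE 0.079) and −0.13 (SE 0.072) without the covariate. The dimmer Kcnj11 probe was at −0.32 (unadjusted p = 0.0768 in limma), and the brighter G6pc2 probe moved from −0.0039 to 0.11. The summed levels of the PP, ductal, endothelial, macrophage and mesenchymal lists differed by −0.11 to 0.089 between the group means, and each of them overlapped between the groups. At an unadjusted limma p under 0.05, 1 marker of these lists and of the δ-cell list passed, the pan-leukocyte gene Ptprc of the macrophage list, at −0.29 (SE 0.12). The part of acinar, α-cell and slide-row differences in the member values was not tested.

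**Figure D5:**
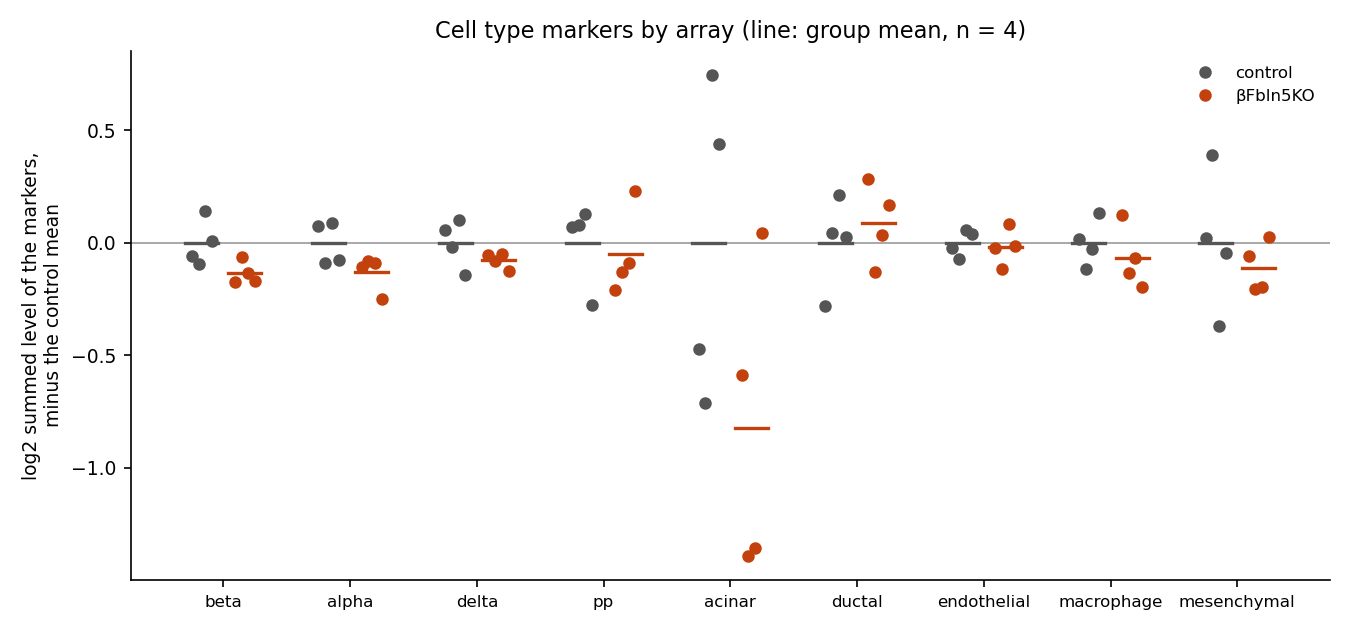
Summed level of the markers of 9 cell types on each array, as log2 difference from the mean of the control arrays, with lines for the group means (n = 4). The acinar sums span the widest range and are 0.82 lower on average in βFbln5KO, and the β-cell sums are 0.14 lower at this scaling, but 0.026 higher with quantile normalization.

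The genes whose levels followed each member most closely over the 8 arrays were sought among 13551 genes detected on all of them with no value left out as an outlier. Pearson's r is given as a description, over 8 arrays of separate extractions that share 1 slide and 1 labelling protocol. For Slc2a2 they were Cpne7 (r = 0.97), Cnn2 (0.96) and Col9a2 (0.96), and for G6pc2 they were Cobll1 (0.95), Tmem192 (0.94) and Terf2 (0.94). For Abcc8 they were Rbm48, Mllt10 and Gsk3b (r = 0.97, 0.97 and 0.95). For Kcnj11 they were Kctd21, Gm11564 and AA619741 (r = 0.96 each). Neither subunit of the channel was among the 3 nearest genes of the other.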

How the data were processed

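RNA was labelled with Cy3 and hybridized to Agilent SurePrint G3 mouse arrays. The authors deposited, per the file headers, the processed signal of Feature Extraction 11.0.1.1, a background-subtracted and spatially detrended intensity that is not normalized between arrays. A further deposited table, of 35553 probes, holds ratios of the processed signal to 1 divisor per array (99.2% of values within 0.01% of such a ratio, the others not accounted for; column medians 0.388 to 0.417). The paper's methods name GeneSpring with intensity-dependent normalization for the data, which 1 divisor per array is not. On each array 75.0% of the table's probes lie below the divisor, which is thus close to their 75th percentile. It served as an alternative.

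From the deposited intensities, log2 values minus each array's 75th percentile (709 to 1012 in control, 910 to 1055 in βFbln5KO) were computed here. Outlier-marked values were left out, and spots of a probe were averaged. RefSeq accessions gave 32994 of 56605 probes the symbol of 1 gene, and a gene was read by its brightest probe. Groups were compared with limma 3.58.1 (lmFit, eBayes with trend) in R 4.3.3, tested on simulated data, and single values with exact two-sided permutation tests. Figures were drawn with matplotlib 3.10.9.

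The members and lists were chosen with earlier results of these data known. Genes were named by rule: the members, Fbln5, related subunits, transporters and hexokinases, the 4 genes of smallest p in each of 5 lists among probes detected (well above background) on all 8 arrays, and the 3 genes most like each member. Alternatives were normexp with an offset of 50 (on median signals), quantile normalization, a filter to probes detected on at least 4 arrays, a common floor under dim signals, eBayes without trend, outliers kept, the deposited table, the methods' t-test, a replicate block, the mean of a gene's bright probes, and each array left out. An acinar covariate and cyclic loess were added after the data were seen. Positions of the probes within transcripts, and of the Fbln5 probe relative to the deleted exons, are not given in the sources used here. Tests of single α-cell markers are not reported here.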

Additional observations from a re-analysis of the deposited data

How the results depend on the processing

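No member probe passed the adjusted threshold under any setting, and the mean Kcnj11 level was lower in βFbln5KO under all of them. Abcc8 reversed to 0.033 with quantile normalization. G6pc2, at −0.0039, turned to 0.16 with quantile normalization, 0.0018 in the deposited table, 0.031 as the mean of its probes, 0.11 with the acinar covariate and 0.048 with cyclic loess, and Slc2a2, at 0.012, to −0.0020 with the acinar covariate. With each array left out, Slc2a2 ran from −0.044 to 0.054, G6pc2 from −0.051 to 0.078 and Fbln5 from −0.78 to −0.33. The 6 probes past the adjusted threshold (5 higher, 1 lower) became 10 with quantile normalization (5 higher, 5 lower), 3 with the common floor, 6578 with eBayes without trend, 87 with the methods' t-test, 2 with the replicate block, 2 with the mean of a gene's bright probes, 2 with the acinar covariate and 11 with cyclic loess (5 higher, 6 lower), and 5 to 11544 with each array left out, the highest without βFbln5KO replicate 4. The causes of these shifts were not tested. Without adjustment the methods' t-test called 10942 probes higher and 2233 lower, among them one probe each of Abcc8 and Kcnj11, those with no overlap between the groups, and neither stayed called after Benjamini-Hochberg adjustment. In limma the bright Abcc8 probe had an unadjusted p of 0.0399 with the filter on dim probes (adjusted 0.682). In the deposited table its unadjusted limma p was 0.0456 (adjusted 0.691).

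Counts of list genes at an unadjusted p under 0.05 moved as follows. The glucose handling list, at 2, had 1 with normexp, 1 with the filter on dim probes, 1 with the common floor, 1 with the replicate block, 0 with the acinar covariate and 1 to 5 with each array left out. The KATP relatives, at 3 (2 higher, 1 lower), had 1 with quantile normalization and 1 with cyclic loess, both lower, and 2, both lower, with normexp, the filter, the common floor, the deposited table and the mean of probes. The list from glucose to ATP, at 0, had 1 with quantile normalization, 1 with the replicate block, 1 with the acinar covariate, 3 with cyclic loess and 0 to 1 with each array left out. The depolarization list, at 1 (higher), had 1 lower in the deposited table, 0 with normexp, quantile normalization, the filter, the common floor, the mean of probes and cyclic loess, 2 with the replicate block, 2 with the acinar covariate and 1 to 2 with each array left out. The transcription factors, at 0, had 1 with the mean of probes and 1 with the acinar covariate. The median log2 fold change of all probes was 0.029 as reported, −0.0065 with quantile normalization and 0.0090 with cyclic loess.

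The sample labels do not say whether the replicate numbers pair the samples, and pairing was not tested. Deviations of same-numbered arrays correlated at 0.20, 0.29, −0.22 and −0.021, and 4 of 8 arrays correlated best with their own number. With the replicate block, Abcc8 stayed at −0.13 (adjusted p = 0.413 in limma) and Kcnj11 at −0.13 (adjusted p = 0.247 in limma), and the dimmer Kcnj11 probe (−0.29) lost its unadjusted call (unadjusted p = 0.0966 in limma). Both dim probes depend on the processing although they were detected on every array: Abcc8 (A_52_P218188), at −0.20, was at −0.13 with normexp and −0.056 with cyclic loess, and Kcnj11 (A_55_P1961477), at −0.29, was at −0.24 and −0.15.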
